A study of Mus musculus with 4 samples.

Results

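The CD300 genes encode a family of cell-surface receptors of myeloid cells, and 10 of them were taken here by symbol from the expression table of the series: Cd300a, Cd300c, Cd300c2, Cd300e, Cd300lb, Cd300ld, Cd300ld2, Cd300ld3, Cd300ld5 and Cd300lf. A row was present for 9 of the 10, and Cd300ld2 was not analysed. The table holds 24497 features in all, of which 11866 were tested. The family was chosen by its measured fold changes between CS1 and PBS, so the differences of the members are given as a description and nothing is read from their calls.

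CD300 receptors carry a single immunoglobulin-type V domain outside the cell, and many of them bind lipids such as phosphatidylserine, which dying cells expose. Inhibitory members have a long cytoplasmic tail with tyrosine motifs that recruit phosphatases. Activating members have a short tail and pair in the membrane with an adaptor, such as DAP12 (gene Tyrobp) or the Fc receptor gamma chain (gene Fcer1g), which passes the signal to the kinase SYK. On monocytes, macrophages, neutrophils and mast cells the balance of both kinds sets how strongly the cell responds.

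The study used a mouse model of acute myeloid leukaemia in which the donor cells, marked by CD45.2, carry the fusion gene MLL-AF9 (MA9). Secondary recipients irradiated with 320 rads received leukaemic bone marrow cells from MLL-AF9 mice. They were then given intraperitoneal CS1, which inhibits the m6A eraser FTO, at 5 mg/kg every second day over 20 days, or PBS as the control. Spleen cells positive for CD45.2 were pulled out on magnetic columns, and their poly(A) RNA was sequenced in 2 CS1 libraries and 2 PBS libraries. Every mouse of both groups thus carried the MLL-AF9 leukaemia and had been irradiated, and nothing states whether a library is 1 animal or a pool. The labels give no age for the mice, and strain enters only through CD45.2. The treatment entry of CS1 replicate 2 reads CS2 although its title says CS1, and the library was kept with CS1. Values are TPM, a share of the library normalized for transcript length, so that levels of different genes can be set side by side. Their read depth is unknown. Because nothing says that the libraries came from separate animals, p-values measure the spread between these libraries only, which may be technical.

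The cell populations of the libraries were checked with marker genes. Ptprc, which encodes CD45, the antigen used for enrichment, averaged 319 ± 6.05 TPM in CS1 and 590 ± 9.74 TPM in PBS (SD, n = 2 each). The summed TPM of 6 B cell markers was 32.2 to 34.8 in CS1 and 54.4 to 55.8 in PBS. For 7 T and NK cell markers it was 5.31 to 5.42 in CS1 and 9.11 to 9.73 in PBS. For 5 platelet markers it was 7.41 to 9.73 in CS1 and 4.55 to 5.50 in PBS, with Pf4 and Ppbp at 0.01, the lowest value of the table, and Gp1ba called higher in CS1. For 6 stromal and endothelial markers it was 38.5 to 41.0 in CS1 and 46.2 to 47.8 in PBS, most of it Pecam1, with Cdh5, Kdr, Col1a1 and Col3a1 under 1 TPM. For 6 erythroid markers it was 4.70 to 29.4 in CS1 and 19.0 to 19.5 in PBS, most of the difference between the CS1 libraries being Hba-a1. Of 12 monocyte and macrophage markers, 9 were tested, among them Adgre1 (97.2 ± 0.98 TPM in CS1, 164 ± 0.05 TPM in PBS). The other 3, Mrc1, C1qa and C1qb, were under 1 TPM in every library.

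The 10 genes lie in 1 cluster on mouse chromosome 11, from 114890041 to 115133992 (mm10, GENCODE M21 on GRCm38), a stretch of 244.0 kb. Cd300a is on the plus strand and the others are on the minus strand. From the low to the high coordinate the order is Cd300a, Cd300lb, Cd300c, Cd300ld, Cd300c2, Cd300ld2, Cd300ld5, Cd300ld3, Cd300e and Cd300lf, with Cd300ld4, a further copy, between Cd300ld2 and Cd300ld5. No exon of a member overlapped an annotated exon of another gene.

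Stretches upstream of the annotated starts of 5 members are shown. They set Cd300ld, Cd300ld3 and Cd300c2, the members lowest in CS1 relative to PBS, and the copy Cd300ld5 beside Cd300lf, which differed least. The stretches are from RefSeq (GRCm38.p6), which held a promoter window of 9 of the 10 genes. All 5 are on the minus strand, printed 5′ to 3′. Positions from the RefSeq start run from -163 to -44 in Cd300ld, -207 to -88 in Cd300ld3 and Cd300ld5, and -60 to -1 in Cd300c2 and Cd300lf. For Cd300ld, Cd300ld3 and Cd300ld5 that start lies inside the GENCODE gene, whose high end is at 114989922, 115048409 and 115037769. For Cd300c2 and Cd300lf it matches the GENCODE end, so positions are not comparable between the former genes and the latter. Capitals mark the 6 letters GGAAGT, the core bound by many ETS-family transcription factors. Nearer the RefSeq start, past the stretches shown, GGAAGT occurred again at -37 in Cd300ld and at -80 in Cd300ld3 and Cd300ld5.
Cd300ld (chr11:114989930-114990049): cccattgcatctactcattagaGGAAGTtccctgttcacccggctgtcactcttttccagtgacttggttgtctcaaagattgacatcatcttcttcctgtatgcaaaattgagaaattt
Cd300ld3 (chr11:115048418-115048537): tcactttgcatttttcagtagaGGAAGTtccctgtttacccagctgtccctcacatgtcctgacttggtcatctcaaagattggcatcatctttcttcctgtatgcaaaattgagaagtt
Cd300ld5 (chr11:115037778-115037897): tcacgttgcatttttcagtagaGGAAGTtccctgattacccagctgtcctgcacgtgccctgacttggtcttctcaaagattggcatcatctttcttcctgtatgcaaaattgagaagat
Cd300c2 (chr11:115001881-115001940): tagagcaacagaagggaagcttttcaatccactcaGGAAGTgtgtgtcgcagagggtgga
Cd300lf (chr11:115133993-115134052): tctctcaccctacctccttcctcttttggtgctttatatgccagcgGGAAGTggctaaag

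The Cd300ld, Cd300ld3 and Cd300ld5 stretches are copies of each other. Over the 120 bases shown, Cd300ld3 and Cd300ld5 matched at 112 positions (93.3%), and Cd300ld matched Cd300ld3 at 82.3% of an alignment of 124 positions. The Cd300c2 and Cd300lf stretches were not aligned with them. On either strand, GGAAGT occurred in the window of 300 bases (250 before the start and 50 after) of 7 of 9 members and of 23.8% of all 32851 RefSeq windows. The longer GAGGAAGT occurred in 4 of 9 members, namely Cd300ld, Cd300ld3, Cd300ld5 and Cd300lf, and in 3.2% of all windows; each of its matches contains a GGAAGT match, and the one of Cd300lf begins at the first base of the gene, past the stretch shown. Both counts include Cd300ld, Cd300ld3 and Cd300ld5, which as copies are not independent matches, so the counts cannot be weighed against the share of all windows. The GGAAGT of Cd300lb was on the opposite strand only. The letters were chosen after the sequences and the values had been seen, and a match is a description of sequence only.

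The similarity extends into the transcripts and limits what the value of a single copy means. Coding sequences of Cd300ld3 and Cd300ld5 were identical at 99.6% of aligned positions. Of the stretches of 50 bases in the Cd300ld3 transcript, 82.1% also occurred in another gene of the family, and for Cd300ld5 all of them did. Cd300ld5 and Cd300ld4 had the same value in every library, so neither is measured on its own. The portion shared with any other gene was 3.89% for Cd300ld, 7.16% for Cd300c2 (with Cd300a), 3.45% for Cd300a (1.9% within the family) and 2.44% for Cd300lf (1.91% within the family). Cd300lb, Cd300c and Cd300e shared no stretch of 50 bases with another transcript. The values of Cd300ld3 and Cd300ld5 are uncertain for this reason, while those of the other 7 rest mostly on sequence of their own.

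Across the family, 8 of the 9 members were lower in CS1 and Cd300c was higher. All 9 were past the threshold of an adjusted p under 0.05 in limma, in a comparison that called 67.0% of all tested features (31.6% lower in CS1 and 35.3% higher). CS1 and PBS libraries did not overlap for any of the 9, nor for 84.4% of all tested features (39.3% lower in CS1 and 45.1% higher). Cd300c2, Cd300ld and Cd300ld3 were called and lower by at least 2 on the log2 scale, as were 0.244% of all tested features. All 9 had passed the filter of at least 1 TPM in at least 2 libraries. Cd300ld5 passed it only through the PBS libraries, so its CS1 and PBS libraries could not overlap. The median log2 fold change of the 9 was -1.11 on the log2(TPM + 1) scale, beside 0.04 over all tested features. In bulk RNA, fewer cells of a type and less RNA per cell cannot be told apart.

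**Figure D1:**
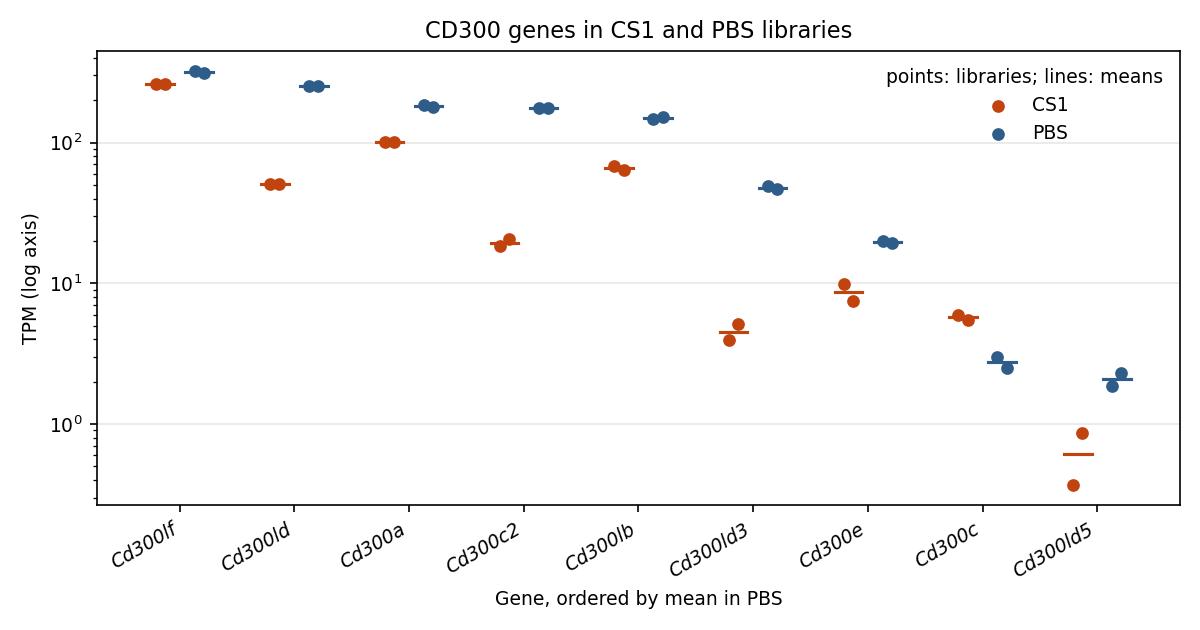
TPM (log axis) of the 9 CD300 genes in each library, CS1 left of PBS, with lines at the group means. The CS1 points lie below the PBS points for every gene except Cd300c, and the gap is widest for Cd300c2 (19.4 TPM in CS1, 176 TPM in PBS) and Cd300ld3 (4.52 TPM in CS1, 47.8 TPM in PBS).

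Among the receptors that signal through adaptors, Cd300c2 (also LMIR2 or MAIR-II) had 18.3 and 20.6 TPM in the CS1 libraries, against 177 and 176 TPM in the PBS libraries. Both CS1 libraries were low and the groups were far apart. Its mean was 9.09-fold lower in CS1, with a log2 fold change of -3.12 ± 0.06 (SE). Cd300ld (LMIR4), which pairs with the Fc receptor gamma chain and was the second most abundant member in PBS, had 50.8 TPM in each CS1 library, against 253 TPM in each PBS library. This was 4.99-fold lower in CS1 (log2 fold change -2.30 ± 0.03). Replicates of Cd300ld differed by less than 0.1 TPM within each group.

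Cd300lb (LMIR5), an activating receptor that pairs with DAP12, had 67.9 and 63.5 TPM in CS1, against 146 and 153 TPM in PBS. Its mean was 2.28-fold lower in CS1 (log2 fold change -1.18 ± 0.04). Cd300e, whose human counterpart is an activating receptor of monocytes, had 9.83 and 7.54 TPM in CS1, against 20.1 and 19.4 TPM in PBS. The CS1 libraries differed more from each other here than the PBS libraries did, and both lay below them (2.27-fold lower in CS1, log2 fold change -1.11 ± 0.12).

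Cd300c, whose human counterpart is an activating receptor, went the other way. It had 5.99 and 5.5 TPM in CS1, against 3.0 and 2.5 TPM in PBS, a log2 fold change of 0.85 ± 0.12. Its higher level in CS1 was still only 1.11% of the summed family there, against 0.239% in PBS. Cd300c lies next to Cd300ld in the cluster and its coding sequence was 84.4% identical to that of Cd300c2 at paired bases, yet it shared no stretch of 50 bases with it.

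The copies of Cd300ld were lower in CS1. Cd300ld3 had 3.94 and 5.10 TPM in CS1, against 49.1 and 46.4 TPM in PBS, 10.6-fold lower in CS1 (log2 fold change -3.15 ± 0.11). Cd300ld5 had 0.37 and 0.86 TPM in CS1, against 1.87 and 2.30 TPM in PBS, and its log2 fold change of -0.95 ± 0.20 is understated by the added 1 at such levels. No role is given here for either copy. Because reads can pass between the copies, their sum is given too: Cd300ld3, Cd300ld4 and Cd300ld5 together had 4.68 and 6.82 TPM in CS1, against 52.8 and 51.0 TPM in PBS. With Cd300ld added, the sum was 56.5 ± 1.5 TPM in CS1 and 305 ± 1.26 TPM in PBS (SD, n = 2 each).

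The inhibitory receptors Cd300lf and Cd300a were both lower in CS1. Cd300lf, an inhibitory receptor of ceramide and sphingomyelin that also serves as the mouse norovirus receptor, had 260 and 259 TPM in CS1, against 320 and 311 TPM in PBS. The groups did not overlap, but the mean was only 17.7% lower in CS1 (log2 fold change -0.28 ± 0.02). Cd300a, an inhibitory receptor of phosphatidylserine and phosphatidylethanolamine, had 101 and 100 TPM in CS1, against 185 and 180 TPM in PBS. Its mean was 44.9% lower in CS1 (log2 fold change -0.85 ± 0.03).

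The order of the levels changed with these unequal differences. In CS1 the means ran from Cd300lf (260 TPM) through Cd300a, Cd300lb, Cd300ld, Cd300c2, Cd300e, Cd300c and Cd300ld3 to Cd300ld5 (0.615 TPM). In PBS they ran from Cd300lf (316 TPM) through Cd300ld, Cd300a, Cd300c2, Cd300lb, Cd300ld3, Cd300e and Cd300c to Cd300ld5 (2.08 TPM). Neighbours in the order differed by less than 2 times the larger SD for Cd300e with Cd300c and Cd300c with Cd300ld3 in CS1, and for Cd300a with Cd300c2 and Cd300c with Cd300ld5 in PBS.

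Summed over the 9 members, the family had 518 and 514 TPM in the CS1 libraries, against 1156 and 1144 TPM in the PBS libraries. These sums were 0.0525% to 0.0529% of the listed total in CS1 and 0.116% to 0.117% in PBS. The summed mean was 55.2% lower in CS1, a log2 ratio of -1.16. Adding Cd300ld4 left the log2 ratio at -1.16. Without Cd300lf, the most abundant member in every library, the sum was 256 ± 2.54 TPM in CS1 and 835 ± 1.93 TPM in PBS (SD, n = 2 each), a log2 ratio of -1.70.

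The make-up of the sum differed too. Cd300lf made up 50.3% ± 0.21 of it in CS1 and 27.4% ± 0.37 in PBS (SD, n = 2 each). Cd300ld made up 9.85% ± 0.05 in CS1 and 22.0% ± 0.17 in PBS, and Cd300c2 3.76% ± 0.34 in CS1 and 15.3% ± 0.02 in PBS. The portions of Cd300lb (12.7% in CS1, 13.0% in PBS) and Cd300e (1.68% in CS1, 1.72% in PBS) differed by less than the larger of the SDs of CS1 and PBS. Cd300a, the other inhibitory member, made up 19.5% ± 0.05 in CS1 and 15.9% ± 0.17 in PBS.

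**Figure D2:**
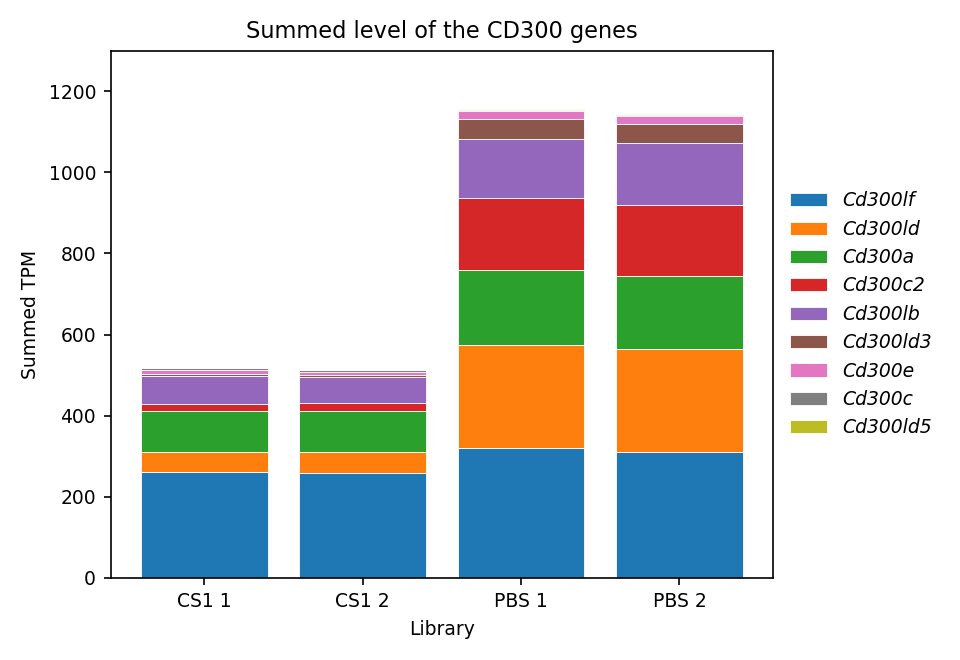
Summed TPM of the 9 CD300 genes in each library, stacked by gene. The CS1 bars reach 518 and 514 TPM and the PBS bars 1156 and 1144 TPM, and the Cd300lf block differs little in height while the Cd300ld and Cd300c2 blocks are much smaller in CS1.

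By position, Cd300ld and Cd300c2, lower in CS1 by 4.99-fold and 9.09-fold, are neighbours in the cluster. Cd300ld3, 10.6-fold lower, follows after Cd300ld2, which has no value, and after Cd300ld4 and Cd300ld5, which are not measured on their own. On the outer sides lie Cd300c, which was higher in CS1, and Cd300e, which was 2.27-fold lower. These are the fold changes that chose the family, and nothing is read from their order.

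Genes around the cluster were called in both directions. The position rule gave 14 protein-coding genes, of which 6 were called lower in CS1 and 5 higher (limma, adjusted p under 0.05). Not all of them are close: the midpoints of Cdc42ep4, D11Wsu47e and Fam104a lie at -1272.7, -1322.5 and -1339.3 kb from the cluster centre. On that side of the cluster, D11Wsu47e and Fam104a were the only genes called lower. Over all tested features, 31.6% were called lower and 35.3% higher, with a median log2 fold change of 0.04. Among the 14 is Cd300ld4, a family gene with the values of Cd300ld5. Of the other 13, 5 were called lower and 5 higher, with a median log2 fold change of -0.16. Cd300ld4 and Fads6 passed the filter only through the PBS libraries, so their CS1 and PBS libraries could not overlap. Rab37, a small GTPase gene of vesicle release, spans Cd300lf on the opposite strand and was the gene of the 14 with the largest rise. It averaged 8.46 ± 0.46 TPM in CS1 and 2.02 ± 0.57 TPM in PBS (SD, n = 2 each; log2 fold change 1.66 ± 0.15, limma adjusted p = 0.00026), so that the pair sharing the locus went opposite ways. Slc9a3r1, a scaffold protein gene next to Rab37, averaged 106 ± 1.07 TPM in CS1 and 135 ± 5.35 TPM in PBS (-0.35 ± 0.03, limma adjusted p = 0.000366). Nat9, an acetyltransferase gene, had 44.0 ± 1.42 TPM in CS1 and 26.9 ± 5.64 TPM in PBS (0.70 ± 0.13, limma adjusted p = 0.00439). On the other side, Kif19a and Ttyh2, the tested genes nearest to Cd300a, did not pass (log2 fold changes -0.26 ± 0.18 and -0.28 ± 0.15, limma adjusted p = 0.237 and 0.141), though both passed as lower after quantile normalization (0.0386 and 0.0177). The ribosomal protein gene Rpl38 rose by 0.46 ± 0.02 and Fam104a had a log2 fold change of -0.44 ± 0.05, with D11Wsu47e at -0.45 ± 0.12 and Cdc42ep4 at 0.03 ± 0.05, the last of which did not pass. Beyond Nat9, Tmem104 and Fads6 had log2 fold changes of -0.16 ± 0.05 and -0.91 ± 0.16, and Fdxr and Mrpl58 of 0.31 ± 0.09 and 0.15 ± 0.03. The call of Tmem104 was lost in 6 of 12 alternatives (adjusted p up to 0.201), and those of Fdxr and D11Wsu47e in 4 each (up to 0.217 and 0.196). Nat9 and Fads6 lost theirs with no filter on low values (0.129 and 0.0531).

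**Figure D3:**
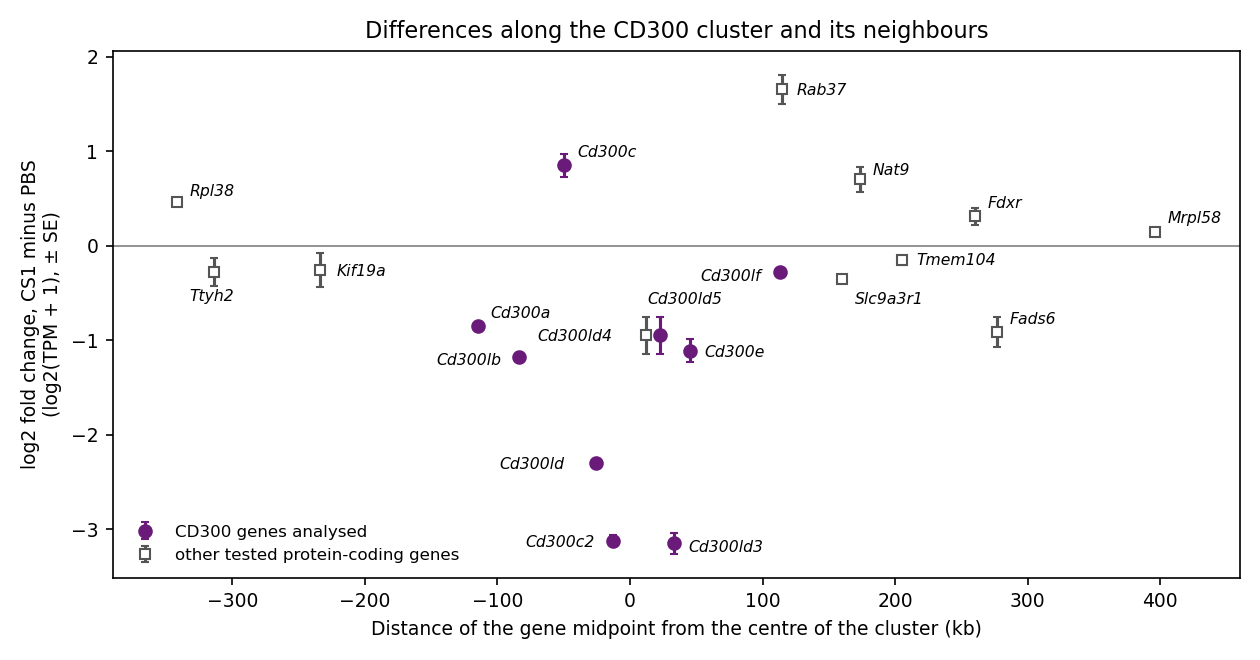
Log2 fold change (CS1 minus PBS, log2(TPM + 1), ± SE) against the distance of each gene's midpoint from the centre of the CD300 cluster, in kb, for the 9 members (filled) and 11 of the 14 other tested genes (open); Cdc42ep4, D11Wsu47e and Fam104a lie farther out and are not drawn. The lowest points, Cd300ld3, Cd300c2 and Cd300ld, sit within the cluster, with Cd300c and Rab37 above 0.

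Of 3 membrane adaptors tested, 2 were called lower in CS1 and 1 higher, beside 31.6% and 35.3% of all tested features. Their log2 fold changes were small, from -0.36 to 0.22. The adaptors named above for activating CD300 receptors, Tyrobp and Fcer1g, were abundant. Tyrobp (DAP12) had 2673 and 2702 TPM in CS1, against 3292 and 3224 TPM in PBS, and fell by 0.28 ± 0.02 on the log2 scale (limma adjusted p = 0.000101). Fcer1g, the Fc receptor gamma chain, had 1318 and 1310 TPM in CS1, against 1707 and 1674 TPM in PBS, and fell by 0.36 ± 0.02 (limma adjusted p = 3.48e-05). Hcst (DAP10), an adaptor that recruits phosphoinositide 3-kinase, averaged 75.8 ± 4.57 TPM in CS1 and 65.0 ± 1.31 TPM in PBS (SD, n = 2 each) and rose by 0.22 ± 0.05 (limma adjusted p = 0.0087); its adjusted p was 0.0575 without PBS replicate 2 and 0.125 with no filter on low values.

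Of 16 kinases and scaffolds that act after such adaptors, 14 fell and 1 rose, with a median log2 fold change of -0.53 beside 0.04 over all tested features. Of all tested features, 31.6% were called lower in CS1 and 35.3% higher. Fgr, a Src-family kinase of myeloid cells, averaged 161 ± 0.28 TPM in CS1 and 419 ± 6.35 TPM in PBS (SD, n = 2 each; log2 fold change -1.37 ± 0.02, limma adjusted p = 1.88e-06). Lyn, the Src-family kinase that phosphorylates both activating and inhibitory receptors, averaged 316 ± 0.95 TPM in CS1 and 563 ± 2.02 TPM in PBS (-0.83 ± 0.02, limma adjusted p = 3.40e-06). The ubiquitin ligase gene Cbl, a brake on such kinases, had a log2 fold change of -1.10 ± 0.03. Syk itself averaged 200 ± 0.04 TPM in CS1 and 299 ± 7.54 TPM in PBS (-0.58 ± 0.03, limma adjusted p = 1.93e-05), named outside the rule. The member that rose was Lat2, an adaptor of mast cells and B cells (0.17 ± 0.02), and Pik3r1 did not pass (0.05 ± 0.04).

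Among the phosphatases that inhibitory receptors recruit, 1 of 4 fell and 1 rose, beside 31.6% and 35.3% of all tested features. Ptpn6 (SHP-1), the main partner of Cd300a and Cd300lf, averaged 663 ± 20.9 TPM in CS1 and 675 ± 2.31 TPM in PBS (SD, n = 2 each) and did not pass (log2 fold change -0.03 ± 0.03, limma adjusted p = 0.419). That sign depended on the scaling: after quantile normalization it was positive and passed (0.0835, adjusted p = 0.017). Ptpn11 (SHP-2) averaged 57.9 ± 2.57 TPM in CS1 and 61.7 ± 1.69 TPM in PBS and did not pass (-0.09 ± 0.04, limma adjusted p = 0.112), though with trimmed-mean scaling both Ptpn6 and Ptpn11 passed as lower in CS1, with limma adjusted p of 0.0445 and 0.0181. Inppl1 (SHIP-2) averaged 12.1 ± 1.01 TPM in CS1 and 27.3 ± 0.03 TPM in PBS (-1.11 ± 0.07, limma adjusted p = 6.58e-05). Inpp5d (SHIP-1), the blood-cell form, rose by 0.09 ± 0.02 (limma adjusted p = 0.0167), a call lost in 6 of 12 alternatives (adjusted p from 0.001 to 0.295).

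**Figure D4:**
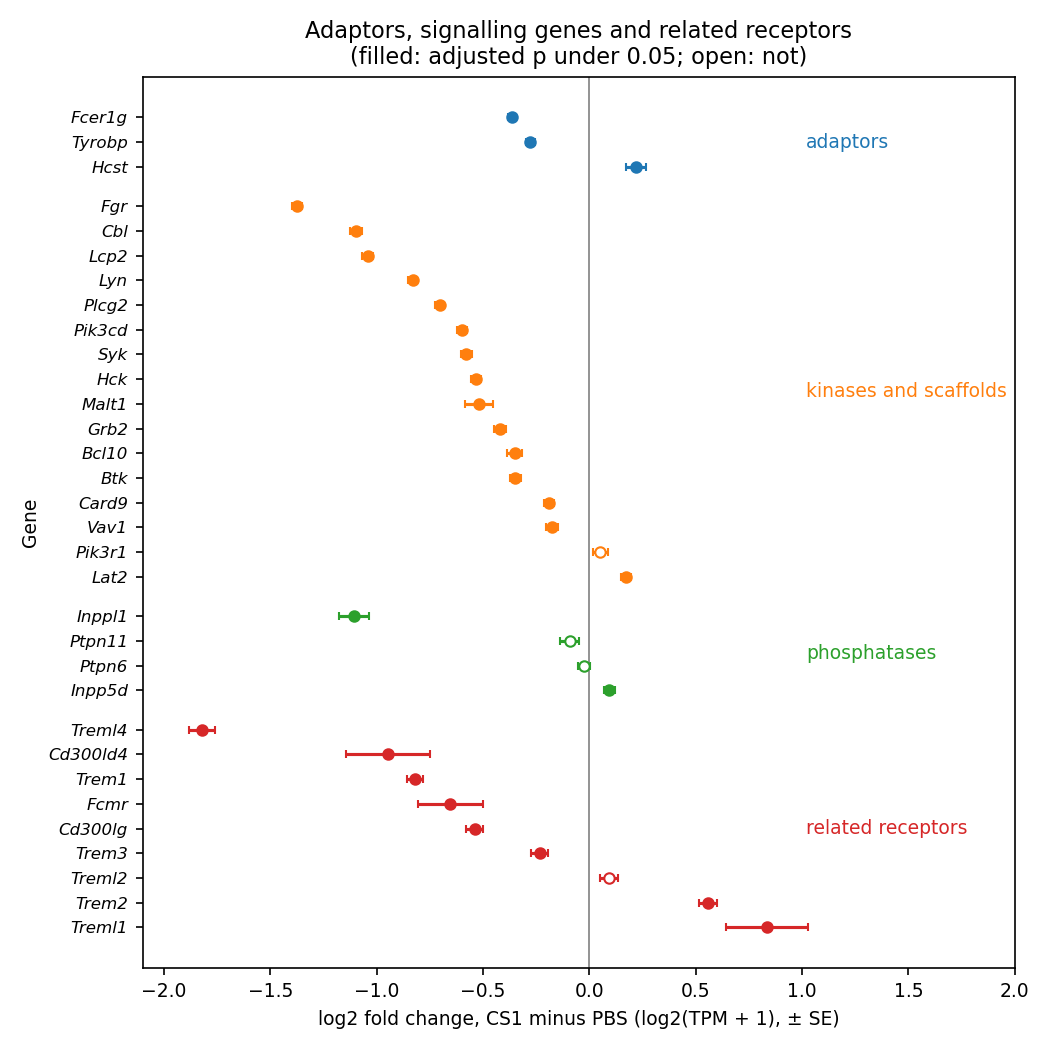
Log2 fold change (CS1 minus PBS, log2(TPM + 1), ± SE) of the tested adaptors, kinases and scaffolds, phosphatases and related receptors, filled where the adjusted p was under 0.05. Of 16 kinases and scaffolds 14 lie below 0, down to -1.37 for Fgr, while Ptpn6, Ptpn11 and Inpp5d lie within 0.1 of 0.

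Other receptors with a similar single V domain were split. Of 9 tested, 6 were called lower and 2 higher, beside 31.6% and 35.3% of all tested features. Cd300ld4, among the lower, and Treml1, among the higher, passed the filter through 1 group only. Their CS1 and PBS libraries could therefore not overlap. Treml4, a receptor that binds dead cells, averaged 12.8 ± 0.23 TPM in CS1 and 47.9 ± 3.30 TPM in PBS (SD, n = 2 each; log2 fold change -1.82 ± 0.06, limma adjusted p = 8.25e-06). Trem1, an amplifier of inflammation that also pairs with DAP12, averaged 75.0 ± 2.21 TPM in CS1 and 133 ± 4.23 TPM in PBS (-0.82 ± 0.04, limma adjusted p = 1.97e-05). Trem2, a lipid receptor that uses the same adaptor, rose to 41.7 ± 0.25 TPM in CS1, against 28.0 ± 0.71 TPM in PBS (0.56 ± 0.04, limma adjusted p = 0.000129). Cd300lg, a family gene known from endothelium and lying on chromosome 11 outside the cluster, averaged 39.6 ± 1.44 TPM in CS1 and 58.0 ± 0.74 TPM in PBS (-0.54 ± 0.04, limma adjusted p = 0.000126). Among endothelial markers, Cdh5 and Kdr were under 1 TPM in every library, while Pecam1, which blood cells also express, averaged 36.7 ± 1.48 TPM in CS1 and 44.2 ± 1.2 TPM in PBS; the part of endothelial cells in the Cd300lg difference was not tested. Trem3 and Fcmr were called lower (-0.23 ± 0.04 and -0.65 ± 0.15). Both calls were lost with no filter on low values (limma adjusted p = 0.0855 and 0.127). That of Trem3 was also lost after quantile normalization (limma adjusted p = 0.0808). Fcmr was not tested at the filter of at least 5 TPM. Its log2 fold change was -0.52 without CS1 replicate 1 and -0.54 without PBS replicate 2. Treml1 averaged 1.51 TPM in CS1 and 0.42 TPM in PBS (0.84 ± 0.19), a call lost with no filter (0.104) and without CS1 replicate 2 (0.0589). Treml2 did not pass (0.09 ± 0.04; adjusted p = 0.0325 after quantile normalization).

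Genes that handle the lipids bound by CD300 receptors were mostly lower. Of 13 genes of ceramide and sphingomyelin metabolism, 10 were called lower and 2 higher, beside 31.6% and 35.3% of all tested features. Their median was -0.43 on the log2 scale, against 0.04 for everything tested. Cers6, a ceramide synthase, had a log2 fold change of -0.79 ± 0.04, Degs1, the desaturase that completes ceramide, -0.50 ± 0.03, and Sgms1, a sphingomyelin synthase, -0.56 ± 0.03. Of 9 scramblases and flippases, which set how much phosphatidylserine faces outward, 5 were called lower and 1 higher (median -0.28). The same 31.6%, 35.3% and 0.04 apply for comparison. The flippase genes Atp11a and Atp8a1 fell by 0.80 ± 0.04 and 1.11 ± 0.05 on the log2 scale, and the scramblase family gene Plscr3 rose by 0.71 ± 0.04.

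Among 13 other receptors of phosphatidylserine and their bridging proteins, only 6 reached the filter, and 7, including Timd4, Axl and Tyro3, stayed under 1 TPM in every library. Pros1, the bridging protein S, averaged 20.9 ± 0.67 TPM in CS1 and 38.6 ± 2.52 TPM in PBS (SD, n = 2 each; log2 fold change -0.86 ± 0.06, limma adjusted p = 9.60e-05). Mfge8, another bridging protein, rose to 25.5 ± 0.33 TPM in CS1, against 13.5 ± 0.72 TPM in PBS (0.87 ± 0.06, limma adjusted p = 9.66e-05). Mertk, a receptor kinase for bridged phosphatidylserine, averaged 3.60 ± 0.57 TPM in CS1 and 0.405 ± 0.06 TPM in PBS (1.71 ± 0.15). It passed the filter only through the CS1 libraries, so its CS1 and PBS libraries could not overlap. Of the 6 tested, 2 were called higher, Mertk among them, and 1 lower, beside 35.3% and 31.6% of all tested features. Havcr2, Stab1 and Cd36 were not called (log2 fold changes 0.04 ± 0.04, 0.11 ± 0.07 and -0.23 ± 0.15). Cd36 reached the filter only through the PBS libraries.

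Markers of the cells that carry CD300 receptors also differed between the groups. Of 9 tested monocyte and macrophage markers 6 were called lower and 2 higher, beside 31.6% and 35.3% of all tested features. Vcam1, among the higher, passed the filter only through the CS1 libraries, so its CS1 and PBS libraries could not overlap. The summed TPM of the 12 listed was 8889 to 8923 in CS1 and 16654 to 16782 in PBS, most of it Lyz2. Csf1r, the receptor for macrophage colony-stimulating factor, averaged 305 ± 0.01 TPM in CS1 and 510 ± 3.0 TPM in PBS (SD, n = 2 each), while Cd14 averaged 224 ± 6.77 TPM in CS1 and 224 ± 7.44 TPM in PBS. Of 11 neutrophil markers 4 fell and 6 rose, beside 31.6% and 35.3% of all tested features. The neutrophil list summed to 18244 to 18253 TPM in CS1 and 5667 to 5742 TPM in PBS. Most of that sum was S100a9, S100a8, Ngp and Camp, which rose, while Csf3r, Mmp8, Ltf and Cxcr2 fell. Of 6 mast cell and basophil markers, 3 were tested, 1 called lower and 2 higher, beside the same 31.6% and 35.3%. The sum of the 6 was 54.5 to 57.6 TPM in CS1 and 11.7 to 12.7 TPM in PBS. Most of it was Mcpt8, with Fcer1a at 0.01 TPM in every library. Beside 35.3% of all tested features, 5 of 6 tested dendritic cell markers were called higher. Siglech, among them, passed the filter only through the CS1 libraries, so its CS1 and PBS libraries could not overlap. The dendritic list summed to 501 to 504 TPM in CS1 and 289 to 298 TPM in PBS. Most of that sum was Flt3, which the leukaemic progenitor list also holds. Of 7 leukaemic progenitor markers 5 rose and 2 fell, beside 35.3% and 31.6% of all tested features. Among those that rose, Kit averaged 17.4 ± 0.93 TPM in CS1 and 4.79 ± 0.65 TPM in PBS (SD, n = 2 each). Hoxa9 averaged 159 ± 2.24 TPM in CS1 and 67.8 ± 2.06 TPM in PBS. The 2 that fell were Ptprc and Cd34, the latter at 30.1 ± 1.87 TPM in CS1 and 45.8 ± 0.72 TPM in PBS. The part of these shifts in the CD300 differences was not tested.

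Transcription factors of myeloid genes went both ways, with 4 of 9 lower and 4 higher, beside 31.6% and 35.3% of all tested features. Gfi1, a transcriptional repressor that neutrophil development requires, rose to 62.6 ± 0.83 TPM in CS1, against 11.2 ± 2.06 TPM in PBS (SD, n = 2 each; log2 fold change 2.39 ± 0.11, limma adjusted p = 2.26e-05). Cebpe, a factor of granule formation, rose by 1.42 ± 0.07 (limma adjusted p = 2.37e-05) and Cebpb, a factor of monocytes and inflammation, fell by 0.63 ± 0.03 (limma adjusted p = 2.94e-05). Spi1, which encodes the ETS-family factor PU.1, averaged 707 ± 3.64 TPM in CS1 and 849 ± 21.2 TPM in PBS (-0.26 ± 0.02, limma adjusted p = 0.000239), named outside the rule. Klf4, also named outside the rule and with a smaller p than Spi1, rose by 0.36 ± 0.02. The part of any of these factors in the CD300 differences was not tested.

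Among the tested protein-coding genes whose profile over the 4 libraries lay closest to the summed CD300 level, by Euclidean distance between log2(TPM + 1) deviations, were Notch2 (distance 0.0154), Arhgap26 (0.019), Sdc3 (0.0198) and Ipcef1 (0.025). Notch2, a Notch receptor gene, had 112 TPM in each CS1 library, against 254 and 251 TPM in the PBS libraries. With 4 libraries in 2 groups, a close profile says little more than that the difference between the groups had the same size.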

How the data were processed

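Values in the deposited table were taken as TPM made by the authors. The unit was inferred from column sums of 977973 to 986345, from decimals and from the mention of RSEM. STAR, RSEM and mm10 are named per the submitters' processing notes, without versions; no source names the annotation or the strand setting. TPM keeps no depth, so no counting interval is given. The lowest listed value was 0.01.

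A feature was tested where 2 or more of the 4 libraries reached 1 TPM, which held for 11866 of 24497. The contrast CS1 minus PBS was fitted on log2(TPM + 1) by limma (version 3.58.1, in R 4.3.3), trend included, two-sided. P-values were adjusted by Benjamini-Hochberg across the 11866 and called under 0.05. The fit was tested on simulated data. An exact permutation test of 2 against 2 libraries cannot give a two-sided p under 0.333. A log2 fold change on this scale understates the change of low genes. Lists are described by counts and medians.

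The members and lists were chosen with earlier results of these data known. Named genes are all members, all tested adaptors, phosphatases and related receptors, the 3 genes with the smallest p of each other pathway list, the 6 nearest tested protein-coding genes on each side of the cluster with those between members, and the 5 closest profiles, of which 1 is not reported here. Marker genes and other genes named were chosen after their values were seen. Coding sequences of GENCODE M21 transcripts were aligned with Biopython 1.88 in place of proteins, which were not used here.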

Additional observations from a re-analysis of the deposited data

How the results depend on the processing

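With 12 alternatives, the features called ranged from 5555 (no filter) to 7963 (trimmed mean of M values), against 7949, and from 6676 to 6809 with 1 library left out. Of the members, 8 were called lower in the main analysis; 7 were called lower with no filter, without PBS replicate 2 and with at least 5 TPM, where Cd300ld5 was not tested (range without 1 library 7 to 8). Cd300ld5 was the member whose call was lost, at adjusted p = 0.0999 with no filter and 0.0507 without PBS replicate 2. The log2 ratio of the summed members, -1.16, was -1.22 after the trimmed mean of M values, -1.07 after quantile normalization, and -1.16 to -1.15 with 1 library left out. Chosen after seeing the data, it was -1.70 without Cd300lf and -2.43 over Cd300ld, Cd300ld3, Cd300ld4 and Cd300ld5 alone. Of the 14 neighbouring genes (Cd300ld4 included), 11 were called, and 5 with no filter, where the cause was not tested. The sign turned for Ptpn6 (0.0835 after quantile normalization, and -0.0579 to 0.0063 with 1 library left out, positive without CS1 replicate 1) and Cdc42ep4 (-0.0317 after the trimmed mean of M values, -0.0266 after quantile normalization); the cause was not tested. Of the other 49 named genes, 17 changed their call or sign in at least 1 alternative.

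Same-numbered libraries share only a number: their deviations correlated at 0.02 over tested features. With the replicate block, 7750 features were called and 8 members were called lower. The TPM table gives no depth, so low values such as those of Cd300ld5 have no counting error here.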
